A study of Mus musculus with 4 samples.

Results

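The 10 genes described here, Bcl2, Bcl2l1, Mcl1, Bcl2a1b, Bcl2a1d, Bcl2l11, Bcl2l14, Bbc3, Bax and Bak1, belong to the BCL2 family, which controls whether the outer membrane of the mitochondria is opened and the cell dies. They were chosen by symbol from the 55385 genes of the count matrix, and each symbol matched 1 row. The study took spleens of WT C57BL6 mice, kept without treatment in the steady state, and used CITE-seq, in which RNA molecules and antibody tags are counted cell by cell, to follow how type 1 conventional dendritic cells (cDC1) mature without infection. Dendritic cells of 2 mice were enriched by negative selection and stained with 160 tagged antibodies and 9 isotype controls. From them, 50000 to 60000 cDC1 (CD64-, CD11c+, MHCII+, XCR1+, CD172a-) were sorted together with 10000 type 2 cells (cDC2) and 10000 random live cells. The 2 resulting libraries form a single group, are not stated to be separate mice, and are called library 1 and library 2 after their barcode suffix. The p-values rest only on how cell classes vary between these libraries, after removal of the shift that a library's classes share. That variation may be technical.

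The family works by binding between its own proteins. BCL2, BCL-XL (Bcl2l1), MCL1 and A1 (the Bcl2a1 genes) hold death in check by sequestering proapoptotic relatives. BIM (Bcl2l11) and PUMA (Bbc3) are BH3-only proteins that bind these guardians, and BAX and BAK (Bak1) are the effectors that form pores in the outer mitochondrial membrane. BCL-G (Bcl2l14) carries a BH3 domain, but its part in cell death is not settled, so it was kept apart. In dendritic cells BIM is known to limit lifespan, while BCL2, BCL-XL and A1 are known to prolong it.

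Lineage was read from 2 antibodies, and their tags are shown because every cDC1 and cDC2 value below rests on them. XCR1 is the chemokine receptor that marks cDC1, and CD172a (SIRP alpha) marks cDC2. Both tags are printed in lower case from the antibody reference.
XCR1: tccattacccacgtt
CD172a: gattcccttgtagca
A cell was cDC1 when its XCR1 count plus 1 was at least 2 times its CD172a count plus 1, and cDC2 in the reverse case. Maturation steps came from unique molecular identifiers (UMIs, 1 per RNA molecule) of Ccr7, the receptor that guides mature dendritic cells along CCL19 and CCL21, and of Fscn1, the actin-bundling protein of mature dendritic cells. Immature cells had 0 of each, intermediate cells had at least 2 Ccr7 and at most 2 Fscn1, and late cells had at least 10 Ccr7 and 5 Fscn1. The steps name an order in these 2 RNAs, not in time.

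The matrix held 31790 barcodes, of which 61 sequences occurred in both libraries, and 28142 cells were kept after filters. Library 1 had 99617992 RNA UMIs and library 2 had 129565040. Immature cDC1 numbered 4422 and 7035 cells in libraries 1 and 2, intermediate cDC1 183 and 218, and late cDC1 59 and 88. The matching cDC2 classes held 1261 and 1353, 356 and 334, and 30 and 32 cells. T cells (832 and 713), NK cells (320 and 446) and B cells (161 and 196) were gated by their own marker lists. Levels below are in CPM, the usual scaling of a gene's UMIs to all RNA UMIs of the class, summed over cells within a library. Because 3′ counting gives 1 UMI per molecule, levels of different genes were compared without division by length. Errors are SD over the 2 libraries (n = 2), and intervals and limits for a count of 0 cover counting error only.

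Lineage markers separated immature cells and were less clear in some cDC2 classes. Xcr1 RNA was at 502 and 582 CPM in immature cDC1 against 90.9 and 108 in immature cDC2, and Sirpa at 1.18 and 1.68 against 160 and 150. In late cDC1 the 8 cDC1 markers summed to 2012 and 2635 CPM against 209 and 148 for the 8 cDC2 markers. In late cDC2, however, the cDC2 markers summed to 941 and 1846 CPM and the cDC1 markers to 1257 and 984, and in G2M cDC2 to 1781 and 2052 against 1995 and 1760, so in library 1 the cDC2 list did not lead in either class and their lineage rests on the antibodies. The 8 mature dendritic cell markers that the gate had not used summed to 6219 and 5694 CPM in late cDC1, 7375 and 5955 in late cDC2, 108 and 113 in immature cDC1 and 343 and 336 in immature cDC2. Late cDC1 had fewer UMIs per cell than immature cDC1 (medians 5127 and 5542 against 8553 and 7674) and less MHC class II RNA (medians 2.09% and 2.45% of UMIs against 5.97% and 5.94%). The cDC2 held fewer UMIs per cell than cDC1, with medians of 3883 and 3743 in immature and 3764.5 and 2992.5 in late cDC2. A fixed Ccr7 or Fscn1 cutoff is thus a larger share of RNA in cDC2. The part of depth in comparisons of cDC1 with cDC2 by step was not tested. Of 609 cells with late levels of Ccr7 and Fscn1, 306 were cDC1 by antibody, 129 cDC2 and 174 between the cutoffs. The filters against other cell types removed some of them, since 176 had under 1% MHC class II RNA and 180 reached 3 UMIs in the monocyte list, 0 of them without Eno3. A wide late gate, chosen after seeing the data, held 133 and 164 late cDC1 and 54 and 69 late cDC2. For cells with at least 2 Ccr7 and 3 Fscn1 UMIs it dropped the 1% floor of MHC class II RNA and took Eno3 off the monocyte list. The other filters were kept.

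**Figure D1:**
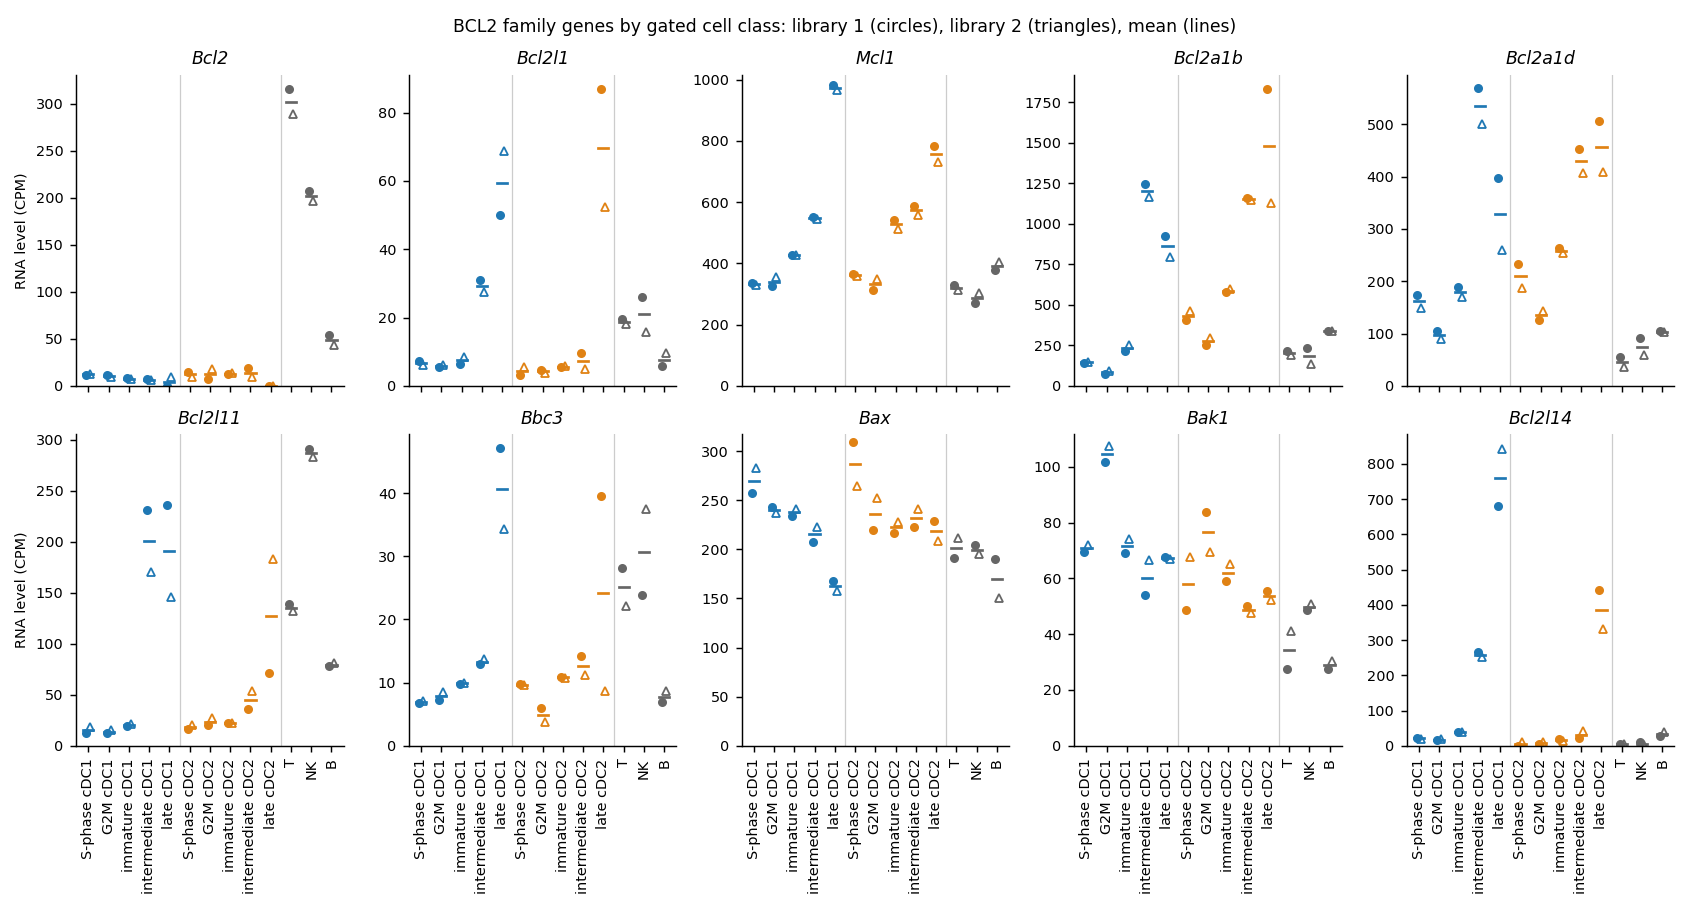
Level of each of the 10 genes (CPM) in each cell class, with 1 point per library and a line at the mean; each gene has its own axis from 0. Bcl2l14 is at 38.4 and 40.2 CPM in immature and 681 and 842 in late cDC1, and Bcl2 is highest in T cells (315 and 289).

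In maturing cDC1, 4 of the 5 antiapoptotic genes (guardians) and both BH3-only genes rose from immature to late cells, and neither effector did. Between immature and late cDC1, 7 of the 10 genes rose and 1 fell, where 41.2% of 10689 genes tested were called in either direction (19.8% higher and 21.4% lower). The median log2 fold change of the 10 was 1.58, beside -0.22 for all genes. The early step, from immature to intermediate, called 6 higher and 0 lower, beside 24.7% of all genes (13.6% higher, 11% lower). The later step, from intermediate to late, called 4 higher and 3 lower, beside 26.2% (12.8% higher, 13.4% lower). All 10 passed the filter on low counts, and every adjusted p-value below comes from the edgeR quasi-likelihood test with Benjamini-Hochberg adjustment over all genes tested.

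Mcl1, a short-lived guardian needed by many blood cells, was at 428 and 426 CPM in immature cDC1 (427 ± 1.61). This was the highest level of the 5 guardian genes there, with each Bcl2a1 copy taken on its own. It stood at 551 and 545 CPM in intermediate cDC1 and at 981 and 966 in late cDC1 (974 ± 10.4). The 3 steps did not overlap between libraries. The log2 fold change was 0.43 (SE 0.08, edgeR adjusted p = 1.2e-04) from immature to intermediate and 0.80 (SE 0.09, edgeR adjusted p = 1.2e-08) from intermediate to late.

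Bcl2l1 was scarce in immature cDC1, at 6.47 and 8.44 CPM (7.46 ± 1.39). Its level was 30.9 and 27.4 CPM in intermediate cDC1 and 50.1 and 68.6 in late cDC1 (59.4 ± 13.1), so each step lay above the previous in both libraries. From immature to late the log2 fold change was 3.06 (SE 0.29, edgeR adjusted p = 4.8e-11). The later step, from intermediate to late, measured 1.05 (SE 0.28, edgeR adjusted p = 4.9e-03), and 0.48 without library 2.

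The A1 genes behaved differently. Mouse A1 is encoded by a cluster of near-identical copies on chromosome 9, where Bcl2a1b lies at chr9:89199273-89207838 and Bcl2a1d at chr9:88723288-88731850 (GRCm38.p6). Bcl2a1b was at 213 and 249 CPM in immature cDC1 (231 ± 25.5), at 1244 and 1165 in intermediate cDC1 (1204 ± 55.7) and at 922 and 798 in late cDC1 (860 ± 87.5). Bcl2a1d followed the same order, with 190 and 169, 569 and 502, and 398 and 260 CPM. Both were highest at the intermediate step. From immature to intermediate they rose by log2 fold changes of 2.44 (SE 0.15, edgeR adjusted p = 2.4e-15) and 1.64 (SE 0.15, edgeR adjusted p = 3.1e-11). From intermediate to late they fell, Bcl2a1b by 0.52 (SE 0.17, edgeR adjusted p = 1.8e-02) and Bcl2a1d by 0.76 (SE 0.18, edgeR adjusted p = 1.6e-03). The fall of Bcl2a1b missed the threshold with DESeq2 (adjusted p = 0.15).

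The promoters of this pair are shown because the pair moved together and because the copies are so alike that reads can be hard to assign. Each runs from 250 bases before to 50 after the transcript start, on the gene's strand, from RefSeq GRCm38.p6. Over 250 aligned positions 247 were identical (98.8%), and 6 more positions stood opposite a gap. Capitals mark bases within the aligned stretch that differ or stand opposite a gap.
Bcl2a1b: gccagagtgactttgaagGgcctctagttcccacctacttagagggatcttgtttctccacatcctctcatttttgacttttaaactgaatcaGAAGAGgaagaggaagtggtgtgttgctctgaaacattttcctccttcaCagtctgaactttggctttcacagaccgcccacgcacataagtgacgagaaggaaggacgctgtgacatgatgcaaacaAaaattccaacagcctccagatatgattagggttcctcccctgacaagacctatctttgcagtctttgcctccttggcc
Bcl2a1d: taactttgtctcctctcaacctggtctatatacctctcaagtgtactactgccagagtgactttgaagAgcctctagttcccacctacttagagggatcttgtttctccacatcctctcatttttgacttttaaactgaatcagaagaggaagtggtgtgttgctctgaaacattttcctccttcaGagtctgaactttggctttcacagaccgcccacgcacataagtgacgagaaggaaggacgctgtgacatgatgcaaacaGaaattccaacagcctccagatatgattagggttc
The first window is chr9:89199023-89199322 on the plus strand, and the second is chr9:88731801-88732100 on the minus strand. The sources used here do not say whether or how reads shared by the copies were counted. The split between Bcl2a1b and Bcl2a1d is therefore uncertain, and so are the A1 levels and the sums that hold them. A further copy, Bcl2a1a, also rose from immature (134 and 138 CPM) to intermediate cDC1 (347 and 365), by a log2 fold change of 1.46 (SE 0.13, edgeR adjusted p = 3.8e-11).

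Bcl2, the founding guardian, did not share this course. It was at 8.40 and 7.07 CPM in immature cDC1 (7.74 ± 0.939) and at 7.09 and 6.33 in intermediate cDC1. Late cDC1 gave 0 UMIs in library 1 and 5 UMIs (9.03 CPM) in library 2. With a log2 fold change of -0.41 (SE 0.67, edgeR adjusted p = 0.68) from immature to late, no difference was detectable at this depth.

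Bcl2l11, which encodes BIM, had the steepest early rise of the 10 genes. It was at 19.3 and 21.7 CPM in immature cDC1 (20.5 ± 1.74), at 231 and 170 in intermediate cDC1 (201 ± 43.1) and at 236 and 146 in late cDC1 (191 ± 63.2). The intermediate and late values overlapped, while all of them lay above both immature values. From immature to intermediate the log2 fold change was 3.35 (SE 0.15, edgeR adjusted p = 7.8e-20), and from intermediate to late it was -0.16 (SE 0.19, edgeR adjusted p = 0.63). In cells thinned to 2000 UMIs, a Bcl2l11 UMI was found in 3.58% and 4.09% of immature, 34.8% and 31.9% of intermediate and 23.7% and 25% of late cDC1.

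The promoter of the first Bcl2l11 start is printed because FOXO factors, which bind forkhead sites, are known activators of this gene. The window is chr2:128125788-128126087 on the plus strand of GRCm38.p6 (RefSeq), and capitals mark the only match to the forkhead core GTAAACA, searched on both strands, at base -227 from the start.
Bcl2l11: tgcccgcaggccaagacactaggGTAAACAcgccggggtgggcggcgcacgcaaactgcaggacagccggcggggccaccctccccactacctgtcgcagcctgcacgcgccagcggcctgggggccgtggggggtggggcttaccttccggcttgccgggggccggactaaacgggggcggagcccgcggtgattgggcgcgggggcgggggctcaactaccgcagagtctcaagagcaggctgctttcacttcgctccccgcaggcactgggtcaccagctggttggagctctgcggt
Such a match was present in 3.65% of 32851 mouse promoters of this length, and in 2 of the 16 windows of the 10 genes, some of which have several starts. These were this window and 1 of Bbc3. The NF-kB consensus, which bears on the A1 genes since NF-kB is a known activator of them, matched 8.46% of promoters and 2 of the 16 windows, 1 of Bbc3 and 1 of Bcl2l1. The Bcl2a1b and Bcl2a1d windows held no match to either, which says only that these letters are absent from these windows. Foxo1 itself was at 35.4 and 25.3 CPM in late cDC1 and its log2 fold change from immature was -0.23 (SE 0.29, edgeR adjusted p = 0.57).

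Bbc3, which encodes the p53 target PUMA, moved late. It was at 9.84 and 9.92 CPM in immature, 12.9 and 13.7 in intermediate and 47.1 and 34.3 in late cDC1 (40.7 ± 9.06). The early difference missed the threshold (log2 fold change 0.50, SE 0.25, edgeR adjusted p = 0.14), and the later one passed it (1.53, SE 0.35, edgeR adjusted p = 9.0e-04). Trp53, which encodes p53, was lower in late than in immature cDC1 (log2 fold change -0.92, SE 0.19, edgeR adjusted p = 1.3e-04). The p53 targets Cdkn1a, a cell-cycle inhibitor, and Mdm2, a p53 ligase, rose by 4.96 and 1.70. These genes are only some of the p53 targets, and the part of p53 in these changes was not tested.

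Bcl2l14 had the largest change of the 10 genes in late against immature cDC1. It stood at 38.4 and 40.2 CPM in immature, 265 and 252 in intermediate and 681 and 842 in late cDC1 (761 ± 114). The steps did not overlap, and the log2 fold change from immature to late was 4.33 (SE 0.15, edgeR adjusted p = 3.9e-23). In cells thinned to 2000 UMIs, 6.76% (exact binomial 95% interval 6.02 to 7.55) and 6.95% (6.35 to 7.58) of immature cDC1 had a Bcl2l14 UMI, against 61.0% (47.4 to 73.5) and 67.0% (56.2 to 76.7) of late cDC1. T cells, which served as background, had one in 0.857% and 0.704% at the same depth. Without thinning the shares were 22.4% and 21.6% in immature cDC1, 84.7% and 86.4% in late cDC1, and 1.56% and 1.26% in T cells.

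The effectors gave no rise. Bax was at 234 and 241 CPM in immature, 207 and 223 in intermediate and 168 and 157 in late cDC1 (163 ± 7.63), with late below immature in both libraries. The log2 fold change from immature to late was -0.52 (SE 0.14, edgeR adjusted p = 3.6e-03), but with the wide late gate it was -0.24 and missed the threshold (edgeR adjusted p = 0.091). Bak1 was at 69.1 and 74.2 CPM in immature and 67.8 and 66.8 in late cDC1, a log2 difference of -0.06 (SE 0.18, edgeR adjusted p = 0.82).

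The levels were also read along Ccr7 itself. Cells were binned by Ccr7 UMIs, with the wide late gate and with cycling cells kept, so depth per cell enters both the bin and the level. In cDC1 with 0 Ccr7 UMIs, Bcl2a1b was at 185 and 221 CPM, with 2 to 4 UMIs at 594 and 721, with 10 to 19 at 1547 and 1199, and with 40 or more at 949 and 965. Its highest bin was 20 to 39 UMIs in library 1 (1605 CPM) and 5 to 9 in library 2 (1347 CPM). Bcl2l14 was highest in the last bin, with 33.5 and 36.0, 92.9 and 108, 506 and 335, and 952 and 992 CPM in the same bins. Mcl1 was highest there too, at 980 and 1129 CPM against 403 and 409 in the first.

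Bcl2l11 differed most between libraries in the upper Ccr7 bins. It was at 17.6 and 20.6 CPM with 0 Ccr7 UMIs, at 162 and 157 with 5 to 9, and at 299 and 133 with 40 or more, a bin of 53 and 36 cells. In cDC2 high levels of Bcl2l11 appeared at higher Ccr7 counts, with 26.9 and 32.7 CPM at 5 to 9 UMIs and 165 and 211 at 20 to 39. At the same Ccr7 count of 5 to 9, Bcl2l11 in cDC1 was thus above cDC2 in both libraries. The cDC2 bin of 40 or more held 12 and 4 cells and was not used.

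**Figure D2:**
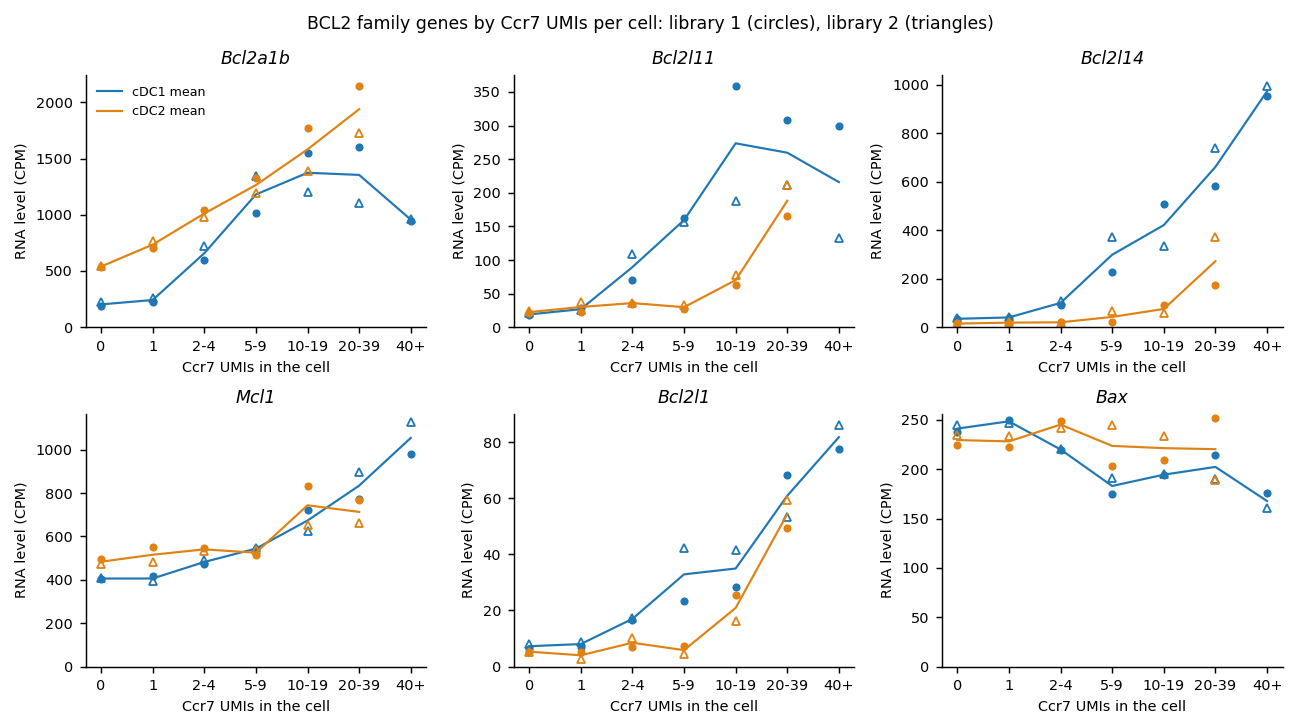
Level of member genes (CPM) by bin of Ccr7 UMIs per cell in cDC1 and cDC2, with 1 point per library and a line through the mean. Bcl2a1b in cDC1 is higher in middle bins (1547 and 1199 CPM at 10 to 19 UMIs) than in the last (949 and 965), where Bcl2l14 is highest, at 952 and 992 CPM.

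Set against each other, guardian RNA outweighed proapoptotic RNA by more in intermediate and late than in immature cDC1. The ratio of summed guardian CPM (Bcl2, Bcl2l1, Mcl1, Bcl2a1b, Bcl2a1d) to summed proapoptotic CPM (Bcl2l11, Bbc3, Bax, Bak1) was 2.55 and 2.48 in immature (2.51 ± 0.0495), 4.75 and 4.74 in intermediate and 4.53 and 5.20 in late cDC1 (4.87 ± 0.468). Intermediate and late values overlapped, and both exceeded the immature ones. This RNA ratio is a description and was not tested, since the genes were chosen with earlier results of these data known.

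The ratio split by role. Guardians over the BH3-only members Bcl2l11 and Bbc3 stood at 29.0 and 27.2 in immature, 9.84 and 12.2 in intermediate and 8.31 and 11.6 in late cDC1. Guardians over effectors had the opposite order, at 2.79 and 2.73, 9.18 and 7.76, and 9.97 and 9.39. The BH3-only sum itself was 30.4 CPM on average in immature and 232 in late cDC1, while the effector sum was 309 and 230.

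The ratio depended on which genes were counted. The expressed A1 copy Bcl2a1a was not among the counted guardians in any of these ratios. With Bcl2l14 counted as proapoptotic it was 2.28 and 2.22 in immature, 3.11 and 3.10 in intermediate and 1.96 and 1.69 in late cDC1, so late then lay below immature. Without the Bcl2a1 genes it averaged 1.30 in immature, 1.19 in intermediate and 2.28 in late cDC1, so intermediate then did not exceed immature cDC1.

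**Figure D3:**
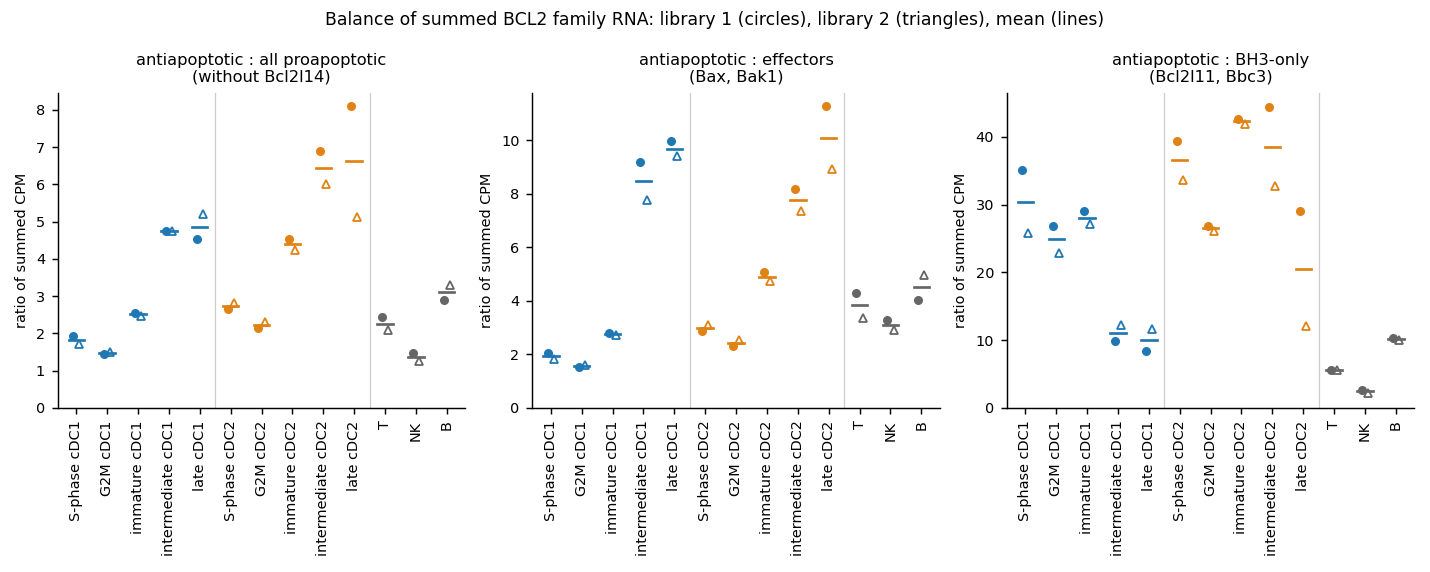
Ratio of summed guardian to summed proapoptotic CPM by cell class, with 1 point per library and a line at the mean, over all proapoptotic genes without Bcl2l14, over effectors and over BH3-only genes. Guardians over BH3-only genes are at 29.0 and 27.2 in immature and 8.31 and 11.6 in late cDC1, while guardians over effectors are at 2.79 and 2.73 and at 9.97 and 9.39.

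The make-up of the guardian pool differed between steps. Shares are of the counted guardian genes, and the A1 copy Bcl2a1a is not among them, so they are not shares of all guardian RNA. Mcl1 supplied 50.1% of guardian UMIs in immature cDC1 on average, 23.6% in intermediate and 43.8% in late cDC1. Bcl2a1b supplied 27.1%, 51.8% and 38.6%, and Bcl2l1 0.873%, 1.25% and 2.70%. On the proapoptotic side Bax gave 70.0%, 44.1% and 35.6%, and Bcl2l11 6.04%, 40.9% and 40.8%.

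**Figure D4:**
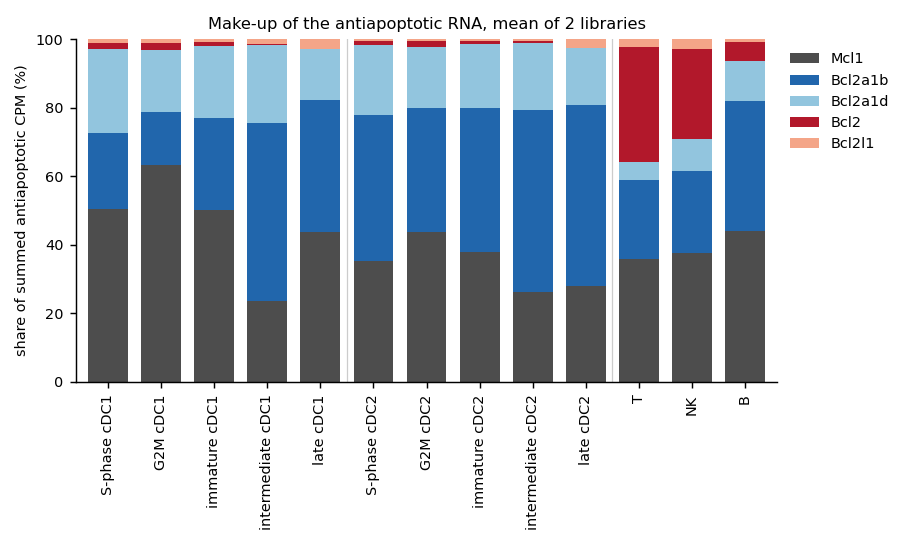
Share of summed guardian CPM held by each counted guardian gene (percent, stacked to the whole, without Bcl2a1a) in each cell class, mean of 2 libraries. Bcl2 takes 33.8% in T cells and 0.908% in immature cDC1, and Bcl2a1b takes 51.8% in intermediate cDC1.

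Immature cDC2 differed from immature cDC1 in the level of several members. In immature cDC2 Bcl2a1b was at 577 and 597 CPM, above all immature cDC1 values, and Bcl2l14 at 18.5 and 14.6, below them. Of the 10 genes 3 were higher and 4 lower in immature cDC1 than in immature cDC2, beside 44.3% of all genes called (21.6% higher, 22.7% lower). Without the replicate block the calls of Bcl2l1, Mcl1 and Bcl2a1d were lost. The log2 fold change was -1.24 for Bcl2a1b (SE 0.15, edgeR adjusted p = 8.5e-09) and 1.35 for Bcl2l14 (SE 0.18, edgeR adjusted p = 4.6e-08). The guardian to proapoptotic ratio was 4.54 and 4.24 in immature cDC2 against 2.55 and 2.48 in immature cDC1. Markers of neutrophils, which express Bcl2a1b, summed to 518 and 343 CPM in immature cDC2 and to 33.5 and 68.9 in immature cDC1. Their part in these differences was not tested.

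From immature to late cDC2, 6 of the 10 genes rose and 0 fell, where 20.7% of all genes were called (9.01% higher, 11.7% lower). The part of the cDC1 marker RNA in late cDC2 (1257 and 984 CPM) in these values was not tested. Their median log2 fold change was 0.92, with Bcl2 (0 UMIs in late cDC2) at its bound or as fitted, beside -0.40 for all genes, and -0.24 for all genes under another scaling. The late cDC2 class was small, with 126517 and 114863 UMIs, so its values carry few counts.

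Bcl2l14 and Bcl2l1 changed most in cDC2. Bcl2l14 reached 443 and 331 CPM in late cDC2 (387 ± 79.1; log2 fold change 4.47, SE 0.31, edgeR adjusted p = 7.7e-14). Bcl2l1 was at 5.55 and 5.71 CPM in immature and 86.9 and 52.2 in late cDC2, the latter from 11 and 6 UMIs (log2 fold change 3.55, SE 0.54, edgeR adjusted p = 3.1e-06). In both genes the late values lay above every immature value.

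Bcl2l11 was at 21.8 and 22.3 CPM in immature cDC2 and 71.1 and 183 in late cDC2 (127 ± 79.0, from 9 and 21 UMIs). Its log2 fold change was 2.40 (SE 0.44, edgeR adjusted p = 5.5e-05), and 1.45 without library 2. Bcl2a1b was at 1834 and 1132 CPM in late cDC2 (1483 ± 496), with a log2 fold change of 1.25 (SE 0.19, edgeR adjusted p = 2.5e-06) and 0.63 without library 1. Mcl1 rose from 540 and 514 to 783 and 731 CPM (log2 fold change 0.44, SE 0.12, edgeR adjusted p = 5.8e-03), and missed the threshold when cells were thinned or no filter on low counts was used.

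Bcl2 gave 0 UMIs in late cDC2 in both libraries, which allows up to 12.4 CPM over the group, beside 12.4 and 13.2 CPM in immature cDC2, and it missed the threshold (edgeR adjusted p = 0.099). With the wide late gate it was again at 0 UMIs, which allows up to 5.99 CPM over the group, and passed as lower (edgeR adjusted p = 7.1e-03). Bbc3 had 5 and 1 UMIs in late cDC2 and missed the threshold (log2 fold change 1.11, SE 0.68, edgeR adjusted p = 0.28). With the wide late gate it passed (1.57, SE 0.41, edgeR adjusted p = 2.8e-03). Bax (-0.11, edgeR adjusted p = 0.78) and Bak1 (-0.29, edgeR adjusted p = 0.66) did not pass.

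The intermediate step of cDC2 was milder for Bcl2l11 than that of cDC1 in level. Bcl2l11 was at 36.0 and 53.7 CPM in intermediate cDC2 against 231 and 170 in intermediate cDC1. The same UMI cutoffs met medians of 3841 and 3605.5 UMIs per cell in intermediate cDC2 and 8575 and 7930.5 in intermediate cDC1. The part of depth in this difference was not tested. In a comparison added after seeing the data, 4 of the 10 genes rose from immature to intermediate cDC2 and 0 fell, beside 11.7% of all genes called (7.61% higher, 4.11% lower). These were Bcl2a1b (log2 fold change 0.96, SE 0.15, edgeR adjusted p = 1.6e-05), Bcl2a1d (0.71), Bcl2l11 (1.0) and Bcl2l14 (0.90, and 0.08 without library 2). Neutrophils also express Bcl2a1b, which was at 1159 and 1145 CPM in this class. Neutrophil markers summed to 36.0 and 1836 CPM here and to 518 and 343 in immature cDC2, and their part in the result was not tested. Cycling cells were split off from the immature classes only. By the same cutoffs, 38 and 55 intermediate cDC2 and 14 and 14 intermediate cDC1 were cycling. The part of these cells in the intermediate values was not tested.

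**Figure D5:**
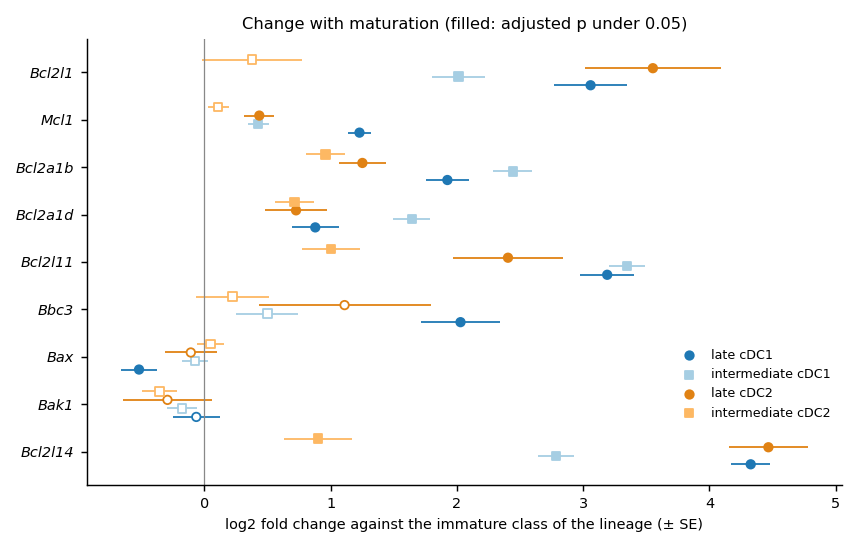
Log2 fold change of intermediate and late against immature cells with SE bars for each gene in cDC1 and cDC2, from edgeR, filled where the adjusted p is under 0.05; Bcl2 is left out because late cDC2 had 0 UMIs of it. Bcl2l14 is highest in late cells of both lineages (4.33 and 4.47), and Mcl1 is at 1.23 in late cDC1 and 0.44 in late cDC2.

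Whether a gene responded differently in the 2 lineages was tested as the difference of their log2 fold changes. Mcl1 passed, at 0.79 (SE 0.14, edgeR adjusted p = 3.6e-04), making 1 of 10 genes beside 3.18% of all genes called (2.79% higher in cDC1, 0.393% lower). With doublets kept it was 0.46 and missed the threshold (edgeR adjusted p = 0.12). The median of this difference over all genes was itself 0.28, and 0.13 under another scaling. Bcl2a1b (0.67, edgeR adjusted p = 0.16), Bcl2l11 (0.79, edgeR adjusted p = 0.41) and Bcl2l14 (-0.14, edgeR adjusted p = 0.92) did not pass. With the wide late gate Bcl2a1b (0.64, edgeR adjusted p = 4.5e-02) and Bcl2l11 (1.15, edgeR adjusted p = 2.7e-02) passed as well. The lineages differed in UMIs per cell under the same UMI cutoffs, and the part of this in these differences was not tested.

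Between late cDC1 and late cDC2 directly, 2 of the 10 genes were higher in cDC1 and 0 lower, beside 3.57% of all genes called (2.38% higher, 1.2% lower). These were Bcl2l14 (log2 fold change 1.21, SE 0.22, edgeR adjusted p = 4.9e-04) and Mcl1 (0.60, SE 0.12, edgeR adjusted p = 1.5e-03), and Mcl1 missed the threshold with doublets kept. Bcl2a1b was at 922 and 798 CPM in late cDC1 and 1834 and 1132 in late cDC2, without passing (-0.56, SE 0.20, edgeR adjusted p = 0.13), though it passed with the wide late gate (-0.67, edgeR adjusted p = 3.5e-03). The guardian to proapoptotic ratio was 8.12 and 5.13 in late cDC2 (6.63 ± 2.11) and 4.53 and 5.20 in late cDC1, so these classes overlapped.

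Of the 10 genes, 7 were lower in G2M cDC1 and 5 in S-phase cDC1 than in non-cycling immature cDC1. Cycling cells were immature cDC1 with S-phase or G2M gene sums above fixed cutoffs, 465 and 541 cells in S phase and 586 and 745 in G2M. In G2M 1 of the 10 genes was higher and 7 lower than in non-cycling immature cDC1, beside 43.1% of all genes called (18.5% higher, 24.6% lower). In S phase 1 was higher and 5 lower, beside 40.2% called (18.1% higher, 22.1% lower). Cycling cells held more UMIs per cell (medians 13276.5 and 12052 in G2M against 8553 and 7674), and neutrophil markers summed to 423 and 224 CPM in G2M cDC1 against 33.5 and 68.9 in non-cycling immature cDC1. The part of either in these results was not tested.

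Bcl2a1b was the most reduced of the guardians in G2M, at 76.2 and 92.1 CPM against 213 and 249 (log2 fold change -1.59, SE 0.16, edgeR adjusted p = 1.3e-10). S-phase cells lay between, at 143 and 150 CPM. Bcl2l14 was at 15.4 and 18.8 CPM in G2M against 38.4 and 40.2 (log2 fold change -1.33, SE 0.16, edgeR adjusted p = 1.2e-08), and Bcl2l11 at 12.3 and 15.6 against 19.3 and 21.7 (-0.69, SE 0.16, edgeR adjusted p = 8.7e-04). Mcl1 was at 326 and 355 CPM against 428 and 426 (-0.46, SE 0.08, edgeR adjusted p = 1.1e-05).

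Bak1 was the member that rose in G2M, to 102 and 108 CPM from 69.1 and 74.2 (log2 fold change 0.42, SE 0.09, edgeR adjusted p = 2.1e-04). Bcl2 was the member that rose in S phase, to 11.7 and 12.9 CPM from 8.40 and 7.07 (0.58, SE 0.18, edgeR adjusted p = 1.0e-02). Bax in G2M stood at 243 and 237 CPM against 234 and 241 (-0.12, edgeR adjusted p = 0.33).

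The guardian to proapoptotic ratio was accordingly lowest among cDC1 classes in cycling cells, at 1.44 and 1.5 in G2M and 1.94 and 1.70 in S phase. In G2M cDC2 the ratio was 2.14 and 2.30, against 4.54 and 4.24 in immature cDC2. A comparison of G2M with immature cDC2, added after seeing the data, called 0 of the 10 genes higher and 4 lower, beside 22.8% of all genes (12.9% higher, 9.97% lower). The 4 were Bcl2a1b (-1.15), Bcl2a1d (-0.99), Mcl1 (-0.73) and Bbc3 (-1.25). Bcl2a1b was at 252 and 297 CPM in G2M cDC2. Neutrophil markers summed to 1795 and 23.5 CPM there and to 518 and 343 in immature cDC2, and their part in the result was not tested.

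Bcl2 was higher in T, NK and B cells than in immature cDC1. Bcl2 was at 315 and 289 CPM in T cells (302 ± 18.9), 208 and 196 in NK cells (202 ± 7.84) and 54.0 and 43.9 in B cells (49.0 ± 7.13), against 8.40 and 7.07 in immature cDC1. No 2 of these classes overlapped. The B cell class also held RNA of plasma cell markers, and its Xcr1 was at 62.1 and 82.1 CPM against 11.8 and 14.7 in T cells. The part of such RNA in the B cell values here and below was not tested. The log2 fold change against immature cDC1 was 5.02 in T cells (SE 0.13, edgeR adjusted p = 7.2e-27), 4.35 in NK cells (SE 0.15, edgeR adjusted p = 3.3e-23) and 2.81 in B cells (SE 0.23, edgeR adjusted p = 4.1e-12). In comparisons added after seeing the data, Bcl2 in T cells exceeded that in NK cells by 0.67 (SE 0.13, edgeR adjusted p = 1.6e-04) and that in B cells by 2.21. These comparisons called 1 member higher and 1 lower in T than in NK cells, beside 19.8% of all genes (9.1% higher, 10.7% lower), and 2 higher and 4 lower in T than in B cells, beside 29.5% (12.8% higher, 16.7% lower).

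Of the 10 genes 4 were higher and 6 lower in T cells than in immature cDC1, where 65.5% of all genes were called (33.7% higher, 31.7% lower). The same counts were found in NK cells, where 55.5% were called (27.6% higher, 27.9% lower). In B cells 3 were higher and 3 lower, beside 38.6% called (19.4% higher, 19.2% lower). With so many genes called, the number of members called in lymphocytes carries little by itself, and the values by gene are given instead. All 3 comparisons, like those of cDC1 maturation and cycling, share the immature cDC1 sums.

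Bcl2l11 was also high in lymphocytes, at 139 and 132 CPM in T cells, 291 and 283 in NK cells and 78.2 and 81.2 in B cells, against 19.3 and 21.7 in immature cDC1. NK cells were at least as high as intermediate (231 and 170) and late cDC1 (236 and 146) in every library. The log2 fold change against immature cDC1 was 3.44 in NK cells (SE 0.15, edgeR adjusted p = 7.5e-21), and T cells were below NK cells by a log2 difference of -0.99 (SE 0.15, edgeR adjusted p = 3.6e-06). Neutrophil markers in T cells were at 1227 and 20.1 CPM and erythroid markers in NK cells at 355 and 29.1, and their part in these results was not tested.

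Of the other guardians, Bcl2l1 was higher and the rest were lower in T and NK cells than in immature cDC1. Bcl2l1 was at 19.5 and 18 CPM in T cells (log2 fold change 1.05, SE 0.20, edgeR adjusted p = 2.2e-05) and at 26.1 and 15.8 in NK cells. Bcl2a1d was at 55.7 and 36.9 CPM in T cells and 90.7 and 59.1 in NK cells, against 190 and 169 in immature cDC1 (log2 fold changes -2.23, SE 0.18, and -1.66 in edgeR). Mcl1 was at 328 and 314 CPM in T cells (log2 fold change -0.69, SE 0.08, edgeR adjusted p = 4.9e-09), 272 and 304 in NK cells and 378 and 404 in B cells. Bcl2a1b overlapped, at 218 and 193 CPM in T cells against 213 and 249 (-0.45, SE 0.16, edgeR adjusted p = 1.3e-02), and missed the threshold under RLE scaling (-0.29, edgeR adjusted p = 0.11). The gene of unsettled role, Bcl2l14, was low in T cells, at 5.92 and 4.19 CPM (log2 fold change -3.20, SE 0.28, edgeR adjusted p = 2.6e-12). It was at 28.7 and 40.1 CPM in B cells, a class in which plasma cell markers summed to 20263 and 17551 CPM.

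Bbc3 was higher, and both effectors were lower, in T and NK cells than in immature cDC1. Bbc3 was at 28.2 and 22.2 CPM in T cells and 23.8 and 37.5 in NK cells, above 9.84 and 9.92 in immature cDC1 (log2 fold change 1.09, SE 0.17, edgeR adjusted p = 8.5e-07, in T cells). In B cells it was at 6.90 and 8.60 CPM and did not pass (-0.19, SE 0.38, edgeR adjusted p = 0.74). Bak1 was at 27.5 and 41.0 CPM in T cells, 48.8 and 50.8 in NK cells and 27.6 and 30.6 in B cells, below 69.1 and 74.2 in immature cDC1 (-1.35, SE 0.12, edgeR adjusted p = 3.6e-12, in T cells). Bax was nearer to its level in immature cDC1 (234 and 241 CPM), at 191 and 211 in T cells (-0.51, SE 0.10, edgeR adjusted p = 3.5e-05).

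Bcl2a1b differed in level between T cell subsets. It was at 458 and 403 CPM in CD4 T cells (81 and 53 cells) and at 139 and 129 in CD8 T cells (364 and 351 cells), without overlap. Bcl2 showed the reverse order, at 209 and 141 CPM in CD4 and 399 and 341 in CD8 T cells, and Bcl2l11 too, at 49.7 and 70.7 against 170 and 134. The subsets were gated by Cd4 and Cd8b1 UMIs and were not tested. At 2000 UMIs per cell a Bcl2 UMI was found in 49.9% and 45.0% of CD8 T cells, 24.2% and 20.5% of CD4 T cells and 1.45% and 1.65% of immature cDC1, and without thinning in 64.6% and 56.7%, 29.6% and 26.4%, and 6.33% and 4.96%.

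The guardian to proapoptotic ratio was 2.43 and 2.09 in T cells, 1.46 and 1.26 in NK cells and 2.90 and 3.31 in B cells. NK cells thus overlapped with G2M cDC1 (1.44 and 1.5) at the low end of all classes. Guardians over BH3-only genes were 2.64 and 2.22 in NK cells and 5.61 and 5.51 in T cells, below all cDC1 and cDC2 classes of the maturation series. That sum counts Bcl2l11 and Bbc3 alone. Pmaip1 and Bmf, BH3-only genes outside it, were lower in T cells than in immature cDC1, so the order holds for the counted genes only. Bcl2 made up 33.8% of guardian UMIs in T cells and 26.3% in NK cells, and Bcl2l11 50.6% of proapoptotic UMIs in NK cells.

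Genes around the family were read from lists that also name other members, caspases, death receptors and regulators. From immature to late cDC1, 2 of 10 tested other family members rose and 0 fell, Bcl2a1a by 0.75 and the BH3-only gene Pmaip1 (NOXA, which neutralises MCL1) by 0.60. The list's median log2 fold change was -0.41, beside -0.22 for all genes. In late cDC2 3 rose and 0 fell, with Bmf, another BH3-only gene, at 47.4 and 34.8 CPM against 11.5 and 10.7 in immature cDC2 (log2 fold change 1.81, SE 0.62, edgeR adjusted p = 0.032). In late cDC1 Bmf was at 5.89 and 5.42 CPM (log2 fold change -0.48, SE 0.67, edgeR adjusted p = 0.62).

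Of 17 caspase, apoptosome and inhibitor genes 7 rose and 5 fell in late cDC1. Among the risers were the inhibitors Birc2 (4.22), Cflar (4.09, which blocks caspase 8 activation) and Birc3 (2.95). Genes that promote apoptosis rose too, among them the protease gene Htra2 (2.77) and the apoptosome gene Apaf1 (1.18), both named after their values were seen. Those that fell were led by Casp6 (-1.90), Casp2 (-1.82), cytochrome c (Cycs, -1.54) and Diablo (-1.10). In late cDC2 5 of 17 rose, including Cflar (3.16), Birc2 (3.02) and Birc3 (2.03), and 2 fell.

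Among death receptor and necroptosis genes 3 of 10 tested rose in late cDC1, Fas (4.32), Tnfrsf1b (3.31) and the adaptor Traf2 (2.36), and Tnfrsf1a fell (-0.69). Late cDC2 also gave 3 risers and 1 that fell, with Fas at 5.66 and Tnfrsf1a at -3.59. Of 12 regulators of the family 4 rose in late cDC1, Cdkn1a, Mdm2, the MCL1 ligase Huwe1 (1.46) and the MCL1 deubiquitinase Usp9x (0.85). Another 4 fell, Fbxw7 (-0.97), Trp53 (-0.92), Bag1 (-0.86) and Bcap31 (-0.60).

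In G2M cDC1, 3 of 10 other family members were higher and 6 lower. Bmf was lowest by fold change (-1.55), followed by Bcl2a1c (-1.17), Bcl2a1a (-1.10) and Bnip3l (-0.84), a mitophagy receptor. Bcl2l12 (0.51), Bcl2l13 (0.39) and Bid (0.29) were higher. In T cells 2 were higher and 7 lower, led by Bcl2a1a (-4.54), Pmaip1 (-3.37) and Bmf (-3.05).

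Likeness of pattern was measured as Pearson r of log2(CPM + 1) over 28 sums, 14 classes in 2 libraries, which share libraries and cells, for 7431 candidate genes. Nearest to Bcl2l14 were Bmt2 (r = 0.948), Ly96 (0.940), which encodes the TLR4 partner MD-2, and Fnbp1l (0.935). Nearest to Bcl2a1b were Atp6v0c (0.944) and the NF-kB subunit genes Relb (0.941) and Rel (0.926). Mcl1 was closest to Etv3 (0.942), Klf6 (0.936) and Gfpt1 (0.935), and Bcl2l1 to Cblb (0.928), Lrrc8c (0.919) and 6720464F23Rik (0.916). Bcl2l11 was closest to Gm43411 (0.934), Gbp4 (0.898) and the phosphatase gene Dusp2 (0.889), and Bbc3 to Lmbr1l (0.863), Ifnar1 (0.855) and Dcaf5 (0.845). These values describe the classes and were not tested.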

How the data were processed

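The authors deposited unnormalised UMI counts of genes and antibodies in a single matrix that aggregates the libraries, and its header names Cell Ranger 3.1.0. STAR, Cell Ranger, Seurat 3.1.4 and mm10 are named in the submitters' processing notes, and no source used here says whether depth was equalised. Cells had at least 500 genes, 1000 UMIs and under 10% mitochondrial UMIs, and Scrublet in scanpy 1.11.5 marked 546 (4.30%) and 1064 (6.24%) doublets, which were removed. Dendritic cells had at least 1% MHC class II UMIs and fewer than 3 UMIs in each list of other cells. Within each library the UMIs of a class were added up, and these sums were tested with edgeR 4.0.16 (R 4.3.3, quasi-likelihood, TMM, filterByExpr, two-sided, Benjamini-Hochberg at 0.05) in 1 fit of 14 classes with library as a block, since every class comes from the same cell suspension within a library. Deviations of classes from 1 library correlated at a median of 0.13 over 91 pairs of classes (59 over 0.1). Of 10736 genes past the filter, 47 used by gates were left out, which left 10689. Fold changes use TMM-scaled totals and can differ from ratios of CPM. SE is the log2 fold change over the square root of F. DESeq2 1.42.0, RLE scaling, no filter, thinning to 2000 UMIs, other gates and leaving out a library were tried, and the fit was tested on simulated data. The members and lists were chosen with earlier results of these data known. Named were all 10 members, up to 4 list genes each way past the threshold by fold change, and the 3 most similar genes for members with an absolute log2 fold change of at least 1 in late against immature cDC1. Of the lists, 14 of 16 other family members and 12 of 13 regulators were in the matrix, and the rest were not analysed here. A list gene that the rule would name is not reported here. No sample column was left unused.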

Additional observations from a re-analysis of the deposited data

Results flagged for a closer look

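Mcl1 was singled out because its maturation effect was tested for a difference between lineages and passed. Its log2 fold change from immature to late cells was larger in cDC1 than in cDC2 by 0.79. Both libraries showed that direction, with a difference of 0.74 without library 2 and 0.88 without library 1. Over all genes the median difference in the main fit was 0.28. With doublets kept the Mcl1 difference was smaller and missed the threshold. It also rests on a late cDC2 class of 30 and 32 cells, whose own Mcl1 rise missed the threshold when cells were thinned.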

How the results depend on the processing

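No member value that passed the threshold in the main fit or in the recomputed one changed direction. Of 2260 recomputed member values, 2036 kept their side of the threshold or moved within the spread. Another 80 lost the call, 38 gained it and 106 moved as untested values. For values without a library, the spread came from the same leave-out values, so lying within it carries little. Such values numbered 109 without library 1 and 105 without library 2. Some settings also left the compared classes as they were, such as a changed late gate in comparisons without late cells. The total is therefore not a measure of stability. Values that missed the threshold in both fits could change sign. Bak1 in late against immature cDC1 did so, from -0.06 to 0.19 with the wide late gate. Thinning to 2000 UMIs lowered the number of genes called to 2773 for late against immature cDC1, 1399 for intermediate against immature cDC1, 1405 for late against intermediate cDC1, 2288 for G2M, 1916 for S phase and 2076 for B cells, from 4409, 2635, 2805, 4605, 4299 and 4125. The direct comparison of late cDC1 with late cDC2 called 382 genes, 719 with the wide late gate, 802 with a late gate of 5 Ccr7 and 3 Fscn1 UMIs and 251 with stricter cell filters. The difference between lineages called 340 genes, 763 with the wide gate, 520 with the lower gate and 225 with cycling cells left among immature cells. The cause was not tested. Under RLE scaling the share of called genes that were higher was 54.0% in place of 43.6% in late cDC2, 46.1% in place of 66.5% between late classes, 75.2% in place of 87.6% for the difference between lineages and 60.8% in place of 50.2% in B cells, and the median of all genes shifted from 0.03 to 0.20 in T cells, -0.04 to 0.10 in NK cells and 0.00 to 0.13 in B cells. Without the replicate block the fit called 4302 genes for late against immature cDC1 and 293 for the difference between lineages, and 6 member calls were lost (edgeR adjusted p in parentheses), Bcl2a1b from intermediate to late cDC1 (0.054), Bcl2a1d in late cDC2 (0.099) and in B cells (0.057), and Bcl2l1 (0.070), Mcl1 (0.11) and Bcl2a1d (0.14) between immature classes. Leaving out a library gives values with no test. An antibody ratio of 3 and a late gate of 20 Ccr7 and 10 Fscn1 UMIs were not run for late cDC2, which then had under 20 cells in a library. In late cDC2 Bcl2 had 0, Bbc3 6 and Bcl2l1 17 UMIs over both libraries.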
